A study of Oryza sativa Indica Group with 24 samples.

Results

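The 100 clones described here were those whose drought ratio in rice leaves stood farthest from the array median at the earliest age sampled, day 45 after germination, and lay above that median at mild, moderate and severe stress alike. They were taken from 7296 complementary DNA clones spotted on the arrays. For the choice, the log2 ratio of stress over control was computed from raw intensities, the median of the array was subtracted, and duplicate spots were averaged; this quantity is called the raw centred ratio here. Clones ranked 151 to 3648 by brightness were kept, which left a window of 3498 clones. In 381 of these the mean over the 3 levels lay farthest from 0 on day 45 rather than on any later day up to day 71. On day 45, 478 clones of the window lay above 0 at all 3 levels, 111 clones met both conditions, and the 100 with the highest minimum over the 3 levels became the members. These ratios chose the members, so the members' values of days 45 to 71 are given as a description, without a test against 0. Differences between levels, which the rule did not use after day 45, were tested over days 52 to 75.

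The leaves were those of Nagina 22, a cultivar of indica rice (Oryza sativa), grown in field plots under a rain shelter, in which irrigation was held at 60% (mild), 40% (moderate) or 15% (severe stress) of field capacity, against 100% in the control plot. Field capacity is the water that a soil holds after draining. Each array carried RNA of stressed leaves in the Alexa 594 channel and RNA of control leaves of the same age in the Alexa 488 channel, with 1 array for each level on days 45, 52, 55, 59, 63, 67, 71 and 75, or 7 to 37 days into the stress. The labels name days 45 and 52 as vegetative, day 55 as before flowering and days 63 to 75 as after flowering and during seed setting; they give no stage for day 59. Per the labels' protocols, 5 leaves were pooled per plot, each level had 1 plot code, and a single control plot is named, so that the levels of a day may share control RNA and no array is a replicate plot; p-values therefore measure the spread between arrays of such plots. The RNA protocol speaks of panicles as well as leaves; the tissue could not be checked against marker genes, because the clone names are not paired with genes in the files used here and 0 of the 7296 names occurred among 39387 rice genes of the reference table. The dyes were never swapped, so a dye bias common to all arrays remains in every ratio and cancels only between days or levels. The moderate arrays of days 52 and 55 may stand under each other's day: in the authors' deposited value table, with both sources centred per clone, the moderate column of day 52 correlated at -0.072 with the scanner array labelled day 52 and at 0.76 with that labelled day 55, and the column of day 55 correlated at 0.12 with its own and at 0.71 with the other, whereas each of the other 19 arrays of days 45 to 71 matched its own column best. The scanner labels are followed here, and the results that rest on these 2 arrays are also given with them exchanged; the rule then found 82 of the 100 members again.

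Plants that lose water accumulate abscisic acid, a hormone that closes the stomata and switches on genes for protective proteins such as dehydrins and other late embryogenesis abundant proteins, for osmolyte synthesis and for detoxification. At the vegetative stage these leaf responses come before flowering, the stage at which rice yield is most sensitive to drought. Nagina 22 is an upland cultivar known for its tolerance of drought and heat. Which of these functions the members belong to cannot be said, since the clones carry names of library plates and wells only.

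The members lay in one corner of the array. The arrays had 48 print blocks in 12 print rows and 4 print columns. Of the 100 members, 71 were printed in print column 4, which held 30.9% of the window, and 2 in print column 1, which held 30.0%. Print rows 1 to 5 held 89 members and 43.8% of the window, and print rows 8 to 12 held 1 member and 34.2% of the window. Both conditions together, column 4 and rows 1 to 5, held 62 members and 13.5% of the window. The blocks of column 4 in rows 2 and 5 had 18 members each and that in row 3 had 11, and 18 of the 48 blocks had any. Of the clone sets by name, NL supplied 97 members (67.3% of the window), NL_ supplied 3 (25.6%) and MK supplied 0 (7.18%). Plate NL19 alone gave 16 members and plate NL21 gave 13, out of 69 and 71 clones of those plates in the window. The highest share of a plate was that of NL43, with 6 of 20. Clone set, plate and print position were not told apart here.

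**Figure D1:**
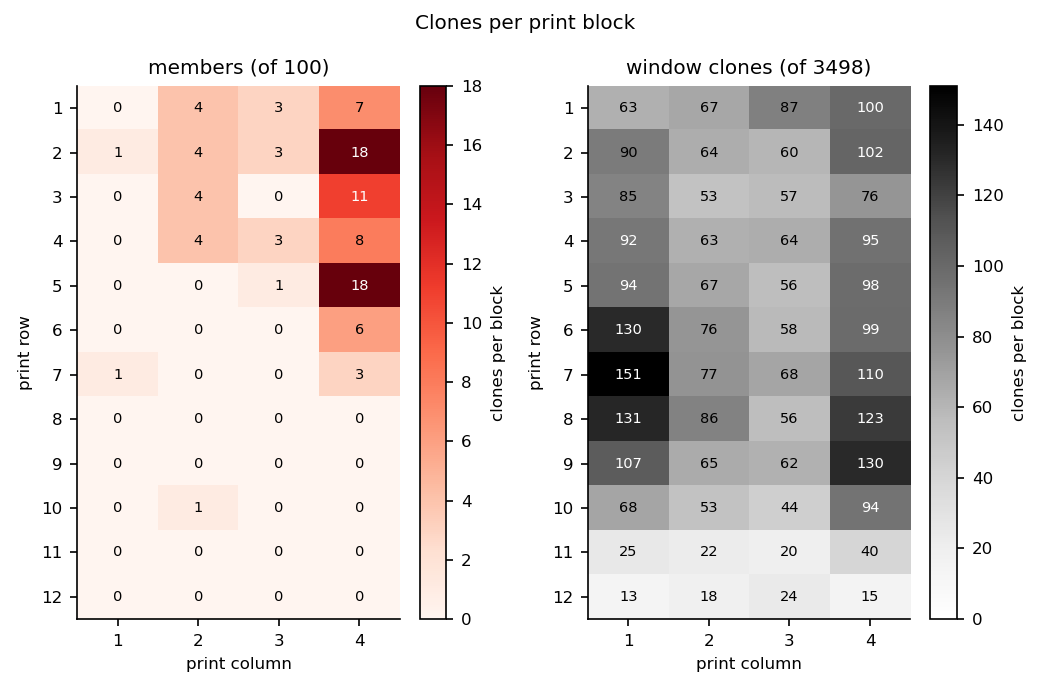
Number of members (left, red) and of window clones (right, grey) in each of the 48 print blocks, by print column and print row. The members crowd into column 4, rows 1 to 5, with 18 in each of 2 blocks, whereas the window clones are spread over all blocks and are most frequent in column 1, row 7 (151 clones).

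The window clones as a whole had higher ratios in some of the same places on day 45, though not on every array. The values that follow are log2 ratios after background correction and 1 loess curve per array, the scale used from here on unless another is named. On the mild array of day 45 the median of the window was 0.47 in print row 1, 0.76 in row 4 and 0.53 in row 5, against -0.33 in row 8 and -1.38 in row 12. On the moderate array it was 0.35 in print column 4, against -0.34 in column 1. On the severe array it was 0.33 in row 5 and 0.32 in row 6, against -0.74 in row 12. The widest differences were thus by row on the mild and severe arrays and by column on the moderate array. The mild array also had -0.18 in column 1 and 0.26 in column 4. On the severe array column 1 stood at 0.051 and column 4, with 71 members, at -0.069. The members were frequent in rows that were high on the mild array and in the column that was high on the moderate array. With a separate loess curve for each print block (print-tip loess), no row or column median of the window on day 45 lay farther from 0 than 0.13. Repeating the rule on ratios from 1 loess curve per array found 29 of the 100 members again, and repeating it on print-tip ratios found 11. Both reruns also change the background and the correction for intensity, so the part of position in the choice of the members was not tested.

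On day 45 the members' median log2 ratio was 0.91 under mild stress, 0.59 under moderate stress and 0.48 under severe stress, against 0.095, -0.075 and -0.036 for the window. In pooled leaves a higher ratio can come from more cells that use a gene or from more RNA per cell, and these cannot be told apart. Members at least 2-fold higher in stressed leaves numbered 43 on the mild array, where 11.3% of all clones were, 18 of 99 on the moderate array, where 1.44% were, and 8 on the severe array, where 2.41% were. No member was 2-fold or more lower on these arrays, where 15.9%, 2.87% and 6.11% of all clones were. Of 99 members with all 3 values, 87 lay above 0 at every level, against 22.6% of all clones; 1 member, NL_13_6, had no moderate value because its spots were marked to be ignored. Since the rule used these arrays, nothing is read from these shares. Under print-tip loess the medians were 0.20, 0.18 and 0.28, the members at least 2-fold higher numbered 12, 5 and 4 (2.55%, 0.672% and 1.07% of all clones), and 45 of 99 lay above 0 at all 3 levels, against 18.7% of all clones. The other members thus had at least 1 level at or below 0 once each print block was centred on its own.

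**Figure D2:**
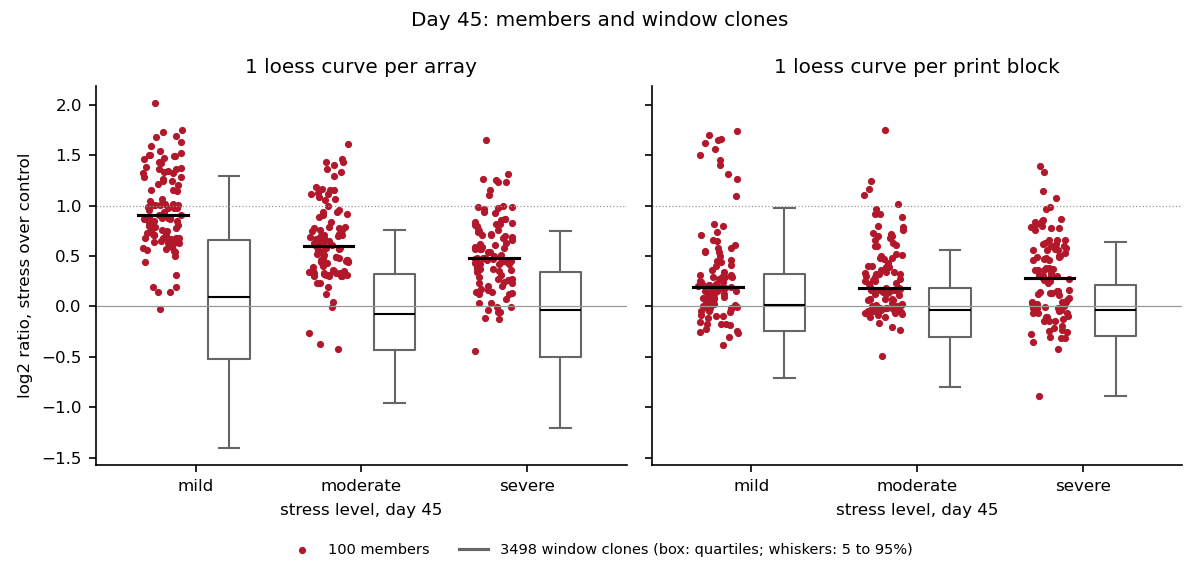
Log2 ratio of stress over control on day 45 for each member (red points, black bar at the median) and for the 3498 window clones (boxes from the lower to the upper quartile, whiskers from the 5th to the 95th percentile), at each stress level. With 1 loess curve per array (left) the members' medians are 0.91, 0.59 and 0.48; with 1 curve per print block (right) they are 0.20, 0.18 and 0.28, and a group of points stays above 1 on the mild array. The dotted line marks 2-fold.

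At the level where a member's ratio was lowest, most of the differences were small. The minimum raw centred ratio over the 3 levels, by which the members were ranked, was highest for NL21_B06, at 0.83 (1.78-fold), and its median over the members was 0.21 (1.16-fold). It was 0.5 or more in 12 members, under 0.1 (1.07-fold) in 21 and at least 1 in 0. The moderate array gave the lowest of the 3 ratios in 60 members, the severe array in 37 and the mild array in 3. The last members inside the threshold were NL51_A06 at 0.050, NL21_H08 at 0.048 and NL43_H06 at 0.048, and the first clones outside it were NL15_F08 at 0.048, NL13_H10 at 0.042 and NL_7_75 at 0.040. Nothing separates those inside from those outside. The members were labelled as the most induced clones of day 45; by these values the label means a small excess over the array median for most of them.

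The first 10 members by rank were NL21_B06, NL7_E08, NL19_C08, NL21_C10, NL41_H12, NL19_F12, NL19_E04, NL19_C12, NL_6_72 and NL21_B04. NL21_B06, in print row 2 and column 4, had log2 ratios of 1.73 under mild stress, 1.16 under moderate stress and 1.27 under severe stress on day 45. NL7_E08, in row 1 and column 4, had 1.52, 1.43 and 1.25, and NL41_H12, in row 6 and column 4, had 2.01, 1.33 and 1.23. All 3 clones were thus more than 2-fold higher in stressed leaves at each level, and mild stress stood highest in each. NL19_C08 had 1.50, 1.43 and 1.15, NL21_C10 had 1.63, 1.29 and 1.23, and NL19_F12 had 1.54, 1.16 and 1.31. NL19_E04 had 1.69, 1.15 and 0.997 and NL19_C12 had 1.36, 1.18 and 0.97, so that these last 2 reached 2-fold under mild and moderate stress and lay just short of it under severe stress. NL_6_72 differed in its order of levels, with 1.01 under mild stress, 1.61 under moderate stress and 1.65 under severe stress. NL21_B04 had 0.87, 1.12 and 0.86. In all, 7 members were 2-fold or more higher at all 3 levels, namely the first 6 and NL_6_72; the same held for 10 of 7213 clones with all 3 values. Under print-tip loess it held for 0 of 99 members and 5 of 7213 clones.

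The first 8 members kept high ratios when each print block was centred on its own. All 8 were printed in column 4, in 4 different blocks, and came from plates NL7, NL19, NL21 and NL41. Under print-tip loess their day 45 ratios ran from 1.27 to 1.70 under mild, from 0.51 to 0.92 under moderate and from 0.56 to 1.08 under severe stress, against medians of 0.17, 0.17 and 0.19 for the other 92 members. A ratio of at least 0.5 at all 3 levels on that scale was found in 9 of 99 members, which were these 8 and NL21_B01, with 0.79, 1.24 and 1.14. Among the window it was found in 75 of 3463 clones. The last 50 members by rank had 0 such clones. The boundary after the eighth member was drawn after the values were seen, and no test rests on it.

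Brightness set the first 8 members apart too. Their brightness ranks ran from 281 to 751, against 850 to 3621 for the other 92 members, and each was brighter than 95% of the empty spots, in at least 1 channel of at least 1 of its spots, on 23 of 23 arrays. Of all 100 members, 72 did so on at least 12 of the 23 arrays (2805 of 3498 clones of the window). On day 45 itself 88 members did so on the mild array (68.4% of all clones), 23 on the moderate array (17.4%) and 18 on the severe array (41.3%). Most members were thus measured near the level of empty spots on the moderate and severe arrays of the day that defined them. The same held for most of all clones on these arrays, and only on the severe array was the members' share the lower one. Duplicate spots of the members differed by a median of 0.13 under mild stress, 0.18 under moderate stress and 0.17 under severe stress on day 45. Over all clones these median differences were 0.16, 0.19 and 0.18. Both spots lay above 0 in 98, 91 and 82 members. The rule asked for a mean of the same spots above 0 on the raw centred scale, and the share over all clones was not taken. Nothing is therefore read from these counts. The spread between duplicate spots is a technical one and covers neither plants nor plots.

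Each channel was then read on its own, as the percentile of a clone's raw intensity among all clones of the array. On the mild array of day 45 the median member stood at 69.7 in the stress channel and at 39.7 in the control channel. The stress value lay within the range of the 7 other mild arrays (50.5 to 70.6), and the control value lay under all 7 (47.9 to 57.3). On the moderate array of day 45 the median member stood at 75.4 in the stress channel and 63.5 in the control channel, each above 6 of the 7 other moderate arrays. On the severe array of day 45 it stood at 40.2 in the stress channel and 30.8 in the control channel, and both lay under all 6 other severe arrays (52.2 to 81.0 for stress and 46.8 to 76.5 for control). The channels thus stood differently at each level against the other days: under mild stress the stress signal was above 6 of 7 arrays and the control signal under all 7, under moderate stress both signals were above 6 of 7, and under severe stress both were under all 6. The labels name a single control plot, and the control channel of the same 100 clones stood at 3 different percentiles on the 3 arrays of that day. For the first 8 members the stress channel stood at medians of 94.0, 97.0 and 93.6 and the control channel at 83.7, 92.2 and 82.8.

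**Figure D3:**
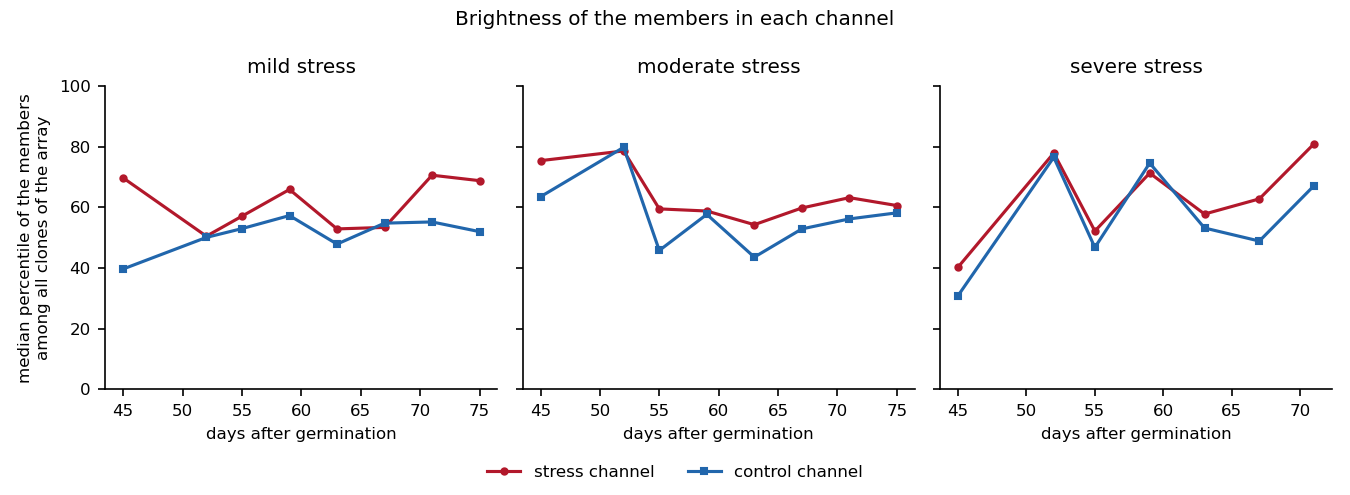
Median percentile of the 100 members among all clones of an array, in the stress channel (red circles) and the control channel (blue squares), by days after germination and stress level. The gap of day 45 is widest under mild stress, 69.7 against 39.7, and both channels of the severe array of day 45 lie under those of the later severe arrays.

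After day 45 the members' medians lay nearer to 0, with higher values again on some later arrays. On day 52 their median log2 ratios were -0.096, -0.015 and 0.19 under mild, moderate and severe stress, and on day 55 they were 0.068, 0.52 and 0.15. On the mild array of day 52, 8 members were at least 2-fold lower, where 12.3% of all clones were. On day 59 they were 0.15, 0.033 and -0.092, on day 63 they were 0.13, 0.26 and 0.25, and on day 67 they were -0.071, 0.23 and 0.48. Day 71 brought medians of 0.44, 0.29 and 0.53, against -0.090, 0.033 and -0.12 for the window. The mean over the 3 levels had a median over members of 0.65 on day 45 and 0.43 on day 71, against -0.0018 and 0.24 at the ages of 52 and 55 days, so that day 71 stood second on this scale. With the moderate arrays of days 52 and 55 exchanged it was 0.18 on day 52 and 0.088 on day 55. On the raw centred scale the rule itself put day 45 first. There the median of day 71 was -0.0034, below 0.19 on day 55, 0.070 on day 63 and 0.064 on day 67. Print-tip loess turned the sign of the median on 6 of 23 arrays (mild and severe day 52, mild and moderate day 59, mild day 63 and moderate day 75) and gave day 71 medians of 0.089, 0.092 and 0.25. On the raw centred scale of the rule the median of the severe array of day 71 was -0.48, below 0, against -0.96 for the window. The direction of the members on that array thus depends on the scaling, while they stood above the window on each of the 3 scales.

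**Figure D4:**
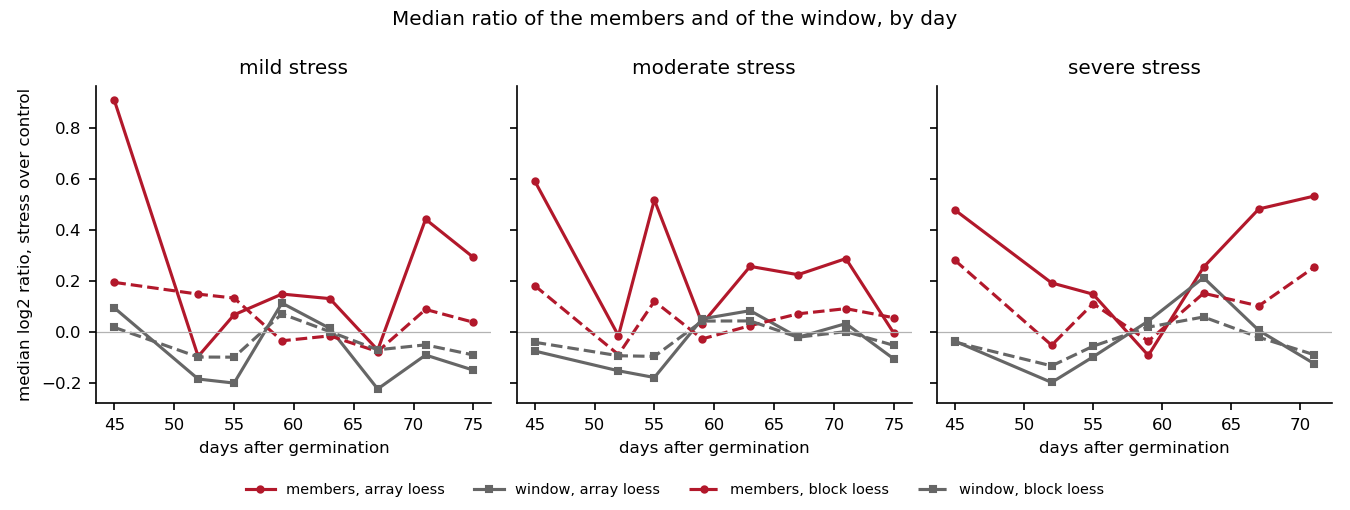
Median log2 ratio of stress over control of the 100 members (red) and of the 3498 window clones (grey), by days after germination and stress level, with 1 loess curve per array (solid) and 1 per print block (dashed). The solid red line is highest on day 45 under mild and moderate stress and stands at 0.53 on day 71 under severe stress; the dashed red line stays at or under 0.28 throughout.

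On the loess scale the severe array of day 71 held the most members with large ratios after day 45. On it 17 members were at least 2-fold higher in stressed leaves, where 4.25% of all clones were, and 3 were at least 2-fold lower, where 19.5% were. With print-tip loess the counts were 15 (4.59% of all clones) and 4 (14.6%), and with median centring they were 8 (6.81%) and 3 (21.2%). On the raw centred scale of the rule they turned round, to 2 members higher (25.1%) and 14 lower (26.4%). The highest were NL9_E05 at 1.90, NL21_H08 at 1.76, NL_6_72 at 1.71, NL19_F06 at 1.70 and NL16_H12 at 1.61, and the lowest were NL10_F10 at -1.48, NL19_G11 at -1.30 and NL10_H02 at -1.26. Of the first 8 members, 2 were among the 17, and of the other 92 members 15 were. On the moderate array of day 71 the members at least 2-fold higher were 4 of the 8 and 0 of the other 92 (0.37% of all clones). On the mild array of that day they were 1 of the 8 and 4 of the other 92 (2.45% of all clones). The highest and lowest clones named here were picked by their values on day 71.

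Over the 20 arrays after day 45, 66 members were at least 2-fold higher on none, 19 on 1 array and 15 on 2 or more, where 11.8% of all clones were so on 2 or more. NL41_H12 was so on 6 arrays, NL21_B06 on 5 and NL21_C10 on 4. With print-tip loess the counts were 3, 4 and 4, and NL19_C08 had the most, at 5 (3 with 1 loess curve per array). Over the 18 arrays of days 52 to 71 the members' mean log2 ratios ran from -0.12 to 0.47, with a median of 0.19. The highest means were those of NL41_H12 (0.47 ± 0.78, SD over 18 arrays, 13 of them above 0), NL19_C08 (0.43 ± 0.73, 14 above 0) and NL_6_72 (0.42 ± 0.57, 16 above 0). The lowest were those of NL19_G11 (-0.12 ± 0.51, 9 above 0), NL16_E10 (-0.10 ± 0.37, 6 above 0) and NL13_B07 (-0.068 ± 0.42, 9 above 0). In each of these 6 clones the SD over arrays exceeded the mean. Each SD spans ages and levels and is not a replicate error.

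The first 8 members were high again on day 55. At that age all 8 lay above 0 at each level, with medians of 1.19 under mild stress, 0.88 under moderate stress and 0.85 under severe stress, against 0.0075, 0.46 and 0.12 for the other 92 members. Of the 8, 5 were at least 2-fold higher on the mild array of day 55, where 5.3% of all clones were, 3 on the moderate array (2.26%) and 1 on the severe array (0.206%). By the scanner labels day 55, before flowering, was thus a second age with high ratios in these clones at all levels. With the moderate arrays of days 52 and 55 exchanged, this held on day 55 under mild and severe stress only: the median of the 8 under moderate stress was then -0.076 on day 55, with 3 of 8 above 0, and 0.88 on day 52. On day 52, between those ages, their medians were -0.55, -0.076 and 0.20, and on the mild array of that day they spread from -1.14 in NL19_F12 to 2.01 in NL19_C08. On day 59 their medians were -0.37, -0.23 and -0.68, and all 8 lay below 0 on the severe array, from -1.12 in NL7_E08 to -0.21 in NL41_H12; with print-tip loess 7 of the 8 did. On the mild array of that day 2 of the 8 lay above 0 and on the moderate array 1 did.

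After flowering, the values of these clones differed most between levels on day 67. On day 63 the medians of the 8 were 0.14, 0.25 and 0.33 under mild, moderate and severe stress (-0.059, 0.0095 and 0.23 with print-tip loess). On day 75 they were 0.58 under mild and -0.047 under moderate stress, an order that print-tip loess turned round (0.090 and 0.21). On day 67 the medians of the 8 were -0.55 under mild stress, 0.45 under moderate stress and 0.91 under severe stress. NL41_H12 had -0.75, 0.91 and 2.00 on that day, NL21_B06 had 0.020, 0.69 and 1.66, and NL21_C10 had -0.39, 0.49 and 1.51. In each of these 3 clones the ratio was ordered by the depth of stress on day 67, an order that rests on 1 array per level. On day 71 the medians were 0.42, 0.90 and 0.71 and all 8 lay above 0 at each level, and 4 of the 8 were at least 2-fold higher on the moderate array, where 0.37% of all clones were. With print-tip loess the day 55 medians were 0.95, 0.70 and 1.20, those of day 59 were -0.33, -0.28 and -0.51, those of day 67 were -0.043, 0.39 and 0.73 and those of day 71 were 0.19, 0.81 and 0.53, so the same ages, as labelled, stood high and low on both scales.

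**Figure D5:**
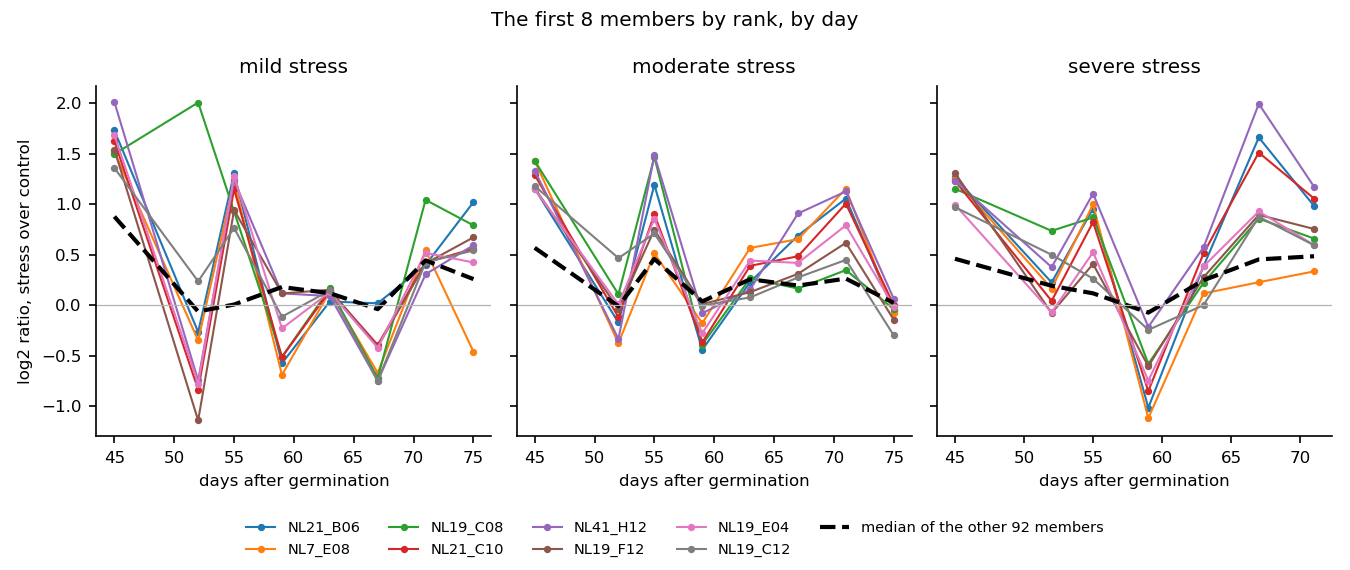
Log2 ratio of stress over control of the first 8 members by rank (coloured lines) and the median of the other 92 members (black dashes), by days after germination and stress level, with 1 loess curve per array. The arrays stand under their scanner labels. The medians of the 8 clones are high on days 45 and 55 and below 0 on day 59. Under moderate and severe stress they are high again on days 67 and 71. Not every clone follows: NL7_E08 stands at 0.23 and 0.34 under severe stress on days 67 and 71, and NL19_C08 at 0.17 and 0.35 under moderate stress.

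The profiles of these 8 clones were alike. Over the 20 arrays after day 45 the correlation between 2 of the 8 had a median of 0.73 over 28 pairs (range 0.21 to 0.96), and 0.68 with print-tip loess (0.36 to 0.97). Between 2 of the other 92 members the median was 0.18 over 4186 pairs, and 0.035 with print-tip loess. The closest pair was NL21_C10 and NL19_E04, of different print blocks, on the first scale, and NL21_B06 and NL21_C10, of the same block, on the second. These values describe clones read on the same arrays, against the same control RNA, in 1 print column and at like brightness, all of which the pairs share. Whether some of these clones carry the same transcript cannot be told from their names.

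Day 75 was the age that the rule did not use. There the mean of the mild and moderate arrays was tested against 0 with limma, in a fit of 1 mean per day over all 23 arrays, with Benjamini-Hochberg adjustment over 7296 clones. The spread in this test was that between stress levels within a day, so the levels served as replicates. A true difference between levels thus counted as error. The arrays of day 45, which chose the members, entered this spread too. No clone passed: 0 of 7296 (0.0%), and 0 members, had an adjusted p under 0.05, with a smallest adjusted p of 0.0965 among all clones and 0.438 among members. Without adjustment 556 clones (7.62%) had a p under 0.05 in limma, among them 7 members, all higher in stressed leaves; with print-tip loess there were 6 such members, 3 higher and 3 lower. The members' coefficients ran from -0.52 to 0.82 with a median of 0.13 and a median SE of 0.28, and 72 of 100 lay above 0 (55 with print-tip loess). The median coefficient of all clones was 0.0066. Above 0 on both arrays were 36 members, against 29.3% of all clones (28 and 28.6% with print-tip loess). The mild array alone had 74 members above 0 (50.1% of all clones, 38.1% of the window) and the moderate array had 50 (49.8% and 38.7%). Some unadjusted intervals excluded 0, such as those of NL21_C04 (0.25 to 1.39) and NL_11_92 (0.14 to 1.39). The interval of 83 members lay within 2-fold either way, and that of 15 members included a 2-fold rise, so such a rise could not be set aside in those 15. Left to 1 array, these counts were 39 and 30 without the mild array and 26 and 64 without the moderate array. The mild array of day 75 alone had a member median of 0.29 and the moderate array one of -0.0041, against -0.15 and -0.11 for the window. With print-tip loess the median coefficient was 0.023.

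NL21_C04 had the highest coefficient on day 75, with log2 ratios of 1.06 under mild and 0.57 under moderate stress, a mean of 0.82 and an SE of 0.28 (adjusted p = 0.438 in limma). NL_11_92 had 0.73 and 0.80 (adjusted p = 0.537 in limma), NL35_C06 had 0.93 and 0.39 (0.540) and NL19_F02 had 0.83 and 0.36 (0.512). These 4 clones lay above 0 on both arrays of the day, and all 4 were printed in column 4. NL21_C04 had also been at 1.32, 0.75 and 0.47 on day 45, and at 0.66, 0.42 and 0.95 on day 71. At the low end NL20_B12 had 0.0041 and -1.05, NL37_F06 had -0.70 and -0.20, and NL9_C04 had 0.23 and -1.01. NL20_B12 and NL9_C04 thus owed their low coefficients to the moderate array. None of these 7 clones passed the test.

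The severe array of day 75 was read only in the authors' value table, whose log2 values are centred per spot within a level, so that only differences between days can be taken from it. In that table the members' severe values of day 75 minus their mean of severe days 52 to 71 had a median of 0.075, against 0.65 for the window and 0.14 for the 6480 clones that could be placed. Of the members, 5 were 2-fold or more higher on day 75 than on those days (20.7% of the placed clones) and 11 were 2-fold or more lower (13.0%). The members thus stood under the window in this difference, which subtracts days that the rule used and is given without a test.

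The levels were compared with each other over days 52 to 75, with day as a fixed factor, to ask whether the members' ratios followed the depth of the drought at ages after the one that chose them. Control RNA common to a day and a constant dye bias cancel in these differences. Severe minus mild had a median over members of 0.12 (window 0.065), moderate minus mild one of 0.070 (window 0.087) and severe minus moderate one of 0.076 (window 0.00072). The median of severe minus mild was 0.040 without day 67 and 0.19 without day 59, 0.062 with print-tip loess and 0.0082 with median centring. That of moderate minus mild was -0.0059 with print-tip loess and 0.12 without day 75, and that of severe minus moderate was -0.0058 with ratios scaled between arrays. The direction of the medians of moderate minus mild and severe minus moderate was thus not settled. The median of severe minus mild stayed above 0 in each setting, though only just so with median centring. The limma test called 0 of 7296 clones (0.0%) and 0 members in each of the 3 comparisons. At an unadjusted p under 0.05 in limma there were 518 clones and 6 members for severe minus mild, 420 clones and 0 members for moderate minus mild, and 493 clones and 1 member for severe minus moderate. The median SE of a member's difference was 0.21, 0.20 and 0.21. The interval lay within 2-fold either way for 95, 99 and 97 members, so that the remaining 5, 1 and 3 members are those whose interval reached a 2-fold difference.

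For severe minus mild the smallest p-values among members were those of NL25_H09 (0.71, SE 0.25, adjusted p = 0.661 in limma), NL21_H06 (-0.66, SE 0.25, adjusted p = 0.663) and NL41_H12 (0.72, SE 0.29, adjusted p = 0.677). NL25_H09 owed its difference largely to days 52 and 63, with -0.019 under severe and -1.96 under mild stress on day 52 and 1.65 and 0.11 on day 63. NL21_H06, lower under severe than under mild stress, had -0.47 and 1.22 on day 71 and -0.25 and 1.12 on day 59. NL41_H12, the fifth member by rank, had 2.00 and -0.75 on day 67. For moderate minus mild the first clones were NL16_H12 (-0.45), NL15_D02 (0.40) and NL39_E06 (0.39), each with an SE of 0.21 to 0.23 and an adjusted p of 0.871 in limma. For severe minus moderate they were NL9_E05 (0.60, SE 0.21, adjusted p = 0.632 in limma), NL16_H12 (0.47) and NL25_H09 (0.49). None of these clones passed the test in any of the 3 comparisons, nor with the moderate arrays of days 52 and 55 exchanged, which left the differences as they were and called 0 clones in each. The quantification sessions of the scanner files both held all levels. The first held days 45 to 55 and the second days 59 to 71. Within the first, without day 45, the median of severe minus mild over members was 0.23 and within the second it was 0.15. For moderate minus mild these medians were 0.19 and 0.043, and for severe minus moderate they were -0.042 and 0.11.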

How the data were processed

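The authors deposited scanner files of 21 arrays with the raw intensity of each spot and channel, per the file headers, short tables of 2 further arrays (mild and moderate day 75) with intensities, and a value table of log2 ratios; how these ratios were normalized was not stated in the labels or headers. The mild array of day 45 held sums over 80 pixels and was divided by 80; 23 spots with a zero intensity were left out of the rule. Clones were taken by name, 7296 in 14592 spots, beside 144 control and 816 empty spots.

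Intensities were corrected with normexp (offset 50) and normalized with 1 loess curve per array (span 0.3, 4 iterations) in limma 3.58.1 (R 4.3.3); ignored spots were left out and duplicates averaged. Tests used lmFit and eBayes with Benjamini-Hochberg adjustment over all clones (threshold 0.05) and were tested on simulated data. Day, which pairs the levels through plants of the same age, was a fixed factor in the comparisons of levels. Tables and plots were made in Python 3.11.15 (pandas 2.3.3, matplotlib 3.10.9).

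Named clones are the first 10 members, the 3 on each side of the threshold, the 3 with the smallest p per test, and the 3 highest and 3 lowest by mean of days 52 to 71 and by day 75; other names were chosen after their values were seen. The members and lists were chosen with earlier results of these data known. The number of arrays limits the precision.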

Additional observations from a re-analysis of the deposited data

Results flagged for a closer look

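Among 39 groups of values over the arrays of days 52 to 75 of 1 level, 3 held an array set apart from the others, where chance sets apart about 1 in 20. On the severe array of day 71, 17 members were at least 2-fold higher in stressed leaves, against 1 to 3 on the 5 other severe arrays after day 45. That count was 15 with print-tip loess, 8 with median centring and 2 on the raw centred scale of the rule, where 14 members were at least 2-fold lower. On the mild array of day 52, 8 members were at least 2-fold lower in stressed leaves, against 0 to 3 on the 6 other mild arrays after day 45. Those 8 included NL25_H09 at -1.96 and NL19_F12 at -1.14. NL19_C08 had a log2 ratio of 1.47 on the moderate array of day 55, against -0.39 to 0.35 on the 6 other moderate arrays after day 45; with print-tip loess it was at 1.34 on that array. That array is 1 of the 2 whose days may be exchanged.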

How the results depend on the processing

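The choice of members depended on the scale: repeating the rule found 29 of the 100 again with loess ratios, 11 with print-tip ratios and 41 without the brightness window, and 73 to 97 with single spots of each pair, with the moderate arrays of days 52 and 55 exchanged or with other readings of the brightness rank; the exchange and the readings were added after seeing the data. On day 45, print-tip loess gave 12, 5 and 4 members at least 2-fold higher under mild, moderate and severe stress, 45 members above 0 at all levels, and medians of 0.195 under mild and 0.18 under moderate stress; without background correction 26 members were at least 2-fold higher under mild stress, and under moderate stress 12 were, against 18, a change of 1.5 times. The other settings moved these counts by less. The test of day 75 called 0 clones in the main setting, 3 with print-tip loess, 7 without background correction, 155 with ratios scaled between arrays (26 higher and 129 lower, with 1 member, NL_11_92, at 0.89 and an adjusted p of 0.0473), 71 with array weights, and 0 and 4 without the mild and without the moderate array. NL20_B12 ranged from -1.05 to 0.0041 and NL9_C04 from -1.01 to 0.23 when the mild or the moderate array was left out, with the sign turned without the moderate array. Severe minus mild called 0 clones, 1 without background correction and 1 within the second quantification session, and 0 to 1 with single days left out (1 without day 52). No member was called in these. Without the replicate block (day not fitted) the 3 comparisons of levels called 0 clones each, as with it, and severe minus mild had a member median of 0.12; that median ran from 0.040 to 0.19 with single days left out. Of the values of named clones in the tests under other settings, 232 kept their direction and their side of the threshold; the exceptions were NL20_B12, NL9_C04 and NL_11_92, named above.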
